A study of Mus musculus with 4 samples.

Results

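The levels of 10 collagen genes are described here across the cell types of the mouse cerebral cortex, in control mice and in mice without a working creatine transporter. The members are 10 of the 21933 genes counted in every library, matched by symbol: Col4a1, Col4a2, Col11a1, Col24a1, Col27a1, Col12a1, Col19a1, Col23a1, Col25a1 and Col15a1. They were chosen with results of the control against CrT-KO contrast known, so their values in that contrast are a description and are not independent support for it. Single-nucleus RNA-seq was performed on the right cortex of 4 adult male mice (PND100), with 1 library per animal. The 2 control mice were CrT+/y, the wild-type littermates. The 2 CrT-KO mice were CrT-/y, hemizygous for a deletion of several exons of Slc6a8, the X-linked gene of the creatine transporter, in all cell types of the animal. No treatment of the mice is given, and the nuclei were purified by flow cytometry before droplet capture.

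Collagens are secreted or membrane proteins in which 3 chains wind into a triple helix. Fibrillar collagens form fibres, network collagens form the sheets of basement membranes, fibril-associated collagens (FACITs) decorate fibres, multiplexins sit at the edge of basement membranes, and transmembrane collagens stay on the cell surface until they are shed. The adult brain holds little fibrous matrix, and its basement membranes lie mainly around vessels. Several non-fibrillar collagens are made by neurons, where they have been linked to axon guidance, synapse formation and the innervation of muscle.

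The 4 libraries held between 8282 and 9295 nuclei and between 51507483 and 65240843 UMIs (unique molecular identifiers, each one RNA molecule counted). After removal of 1236 of 35694 nuclei as doublets, the nuclei were clustered without the 44 collagen genes of the table, and clusters were named from marker genes. All names below stand for likeness to a type. The tests covered 7 major classes, 7 excitatory subclasses by cortical layer and projection (L2/3 IT, L4/5 IT, L5 IT, L5 ET, L5/6 NP, L6 IT and L6 CT, where IT, ET, NP and CT stand for intratelencephalic, extratelencephalic, near-projecting and corticothalamic) and 5 inhibitory subclasses (PV, SST, VIP, LAMP5 and MSN). Every class and subclass carried all of its own markers above the median of the other populations except L5 IT (5 of 6), LAMP5 (6 of 7) and VIP (7 of 8). The label gives cortex, but between 562 and 767 nuclei per library carried markers of striatal medium spiny neurons (MSN). Between 434 and 603 excitatory and between 581 and 759 inhibitory nuclei per library stayed unnamed. Each pair of libraries shared 12 to 19 cell barcodes. Slc6a8, the targeted gene, stood at 6.93 and 6.14 CPM (UMIs scaled to a total of 1000000 UMIs in the population) over all nuclei of the control mice and at 1.64 and 1.63 CPM in the CrT-KO mice. Because CPM is a share of a population's UMIs, fewer molecules of a gene and more molecules of other genes cannot be told apart.

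Col25a1 and Col19a1 gave most of the collagen signal, at 149 and 145 CPM over all nuclei, and Col15a1 gave the least, at 3.84 CPM. Because nuclear RNA is largely unspliced, levels of different genes are compared per kilobase of gene body. On that scale Col4a2 (0.503 CPM per kb), Col19a1 (0.447) and Col4a1 (0.446) stood above Col25a1 (0.318), while Col24a1 and Col15a1 were lowest at 0.0358 and 0.0366 CPM per kb. The members differed in how far a single population stood above the rest. The highest of 17 populations exceeded the median population 258-fold for Col27a1 and 39.0-fold for Col15a1, against 5.96-fold for Col4a2 and 7.01-fold for Col23a1. The first 2 folds divide by medians of only 1.33 and 1.71 CPM, against 52.7 and 14.6 CPM for the others, so their size is uncertain. The members therefore occupied different cell types, and no population was highest for more than 2 of the 10 genes.

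**Figure D1:**
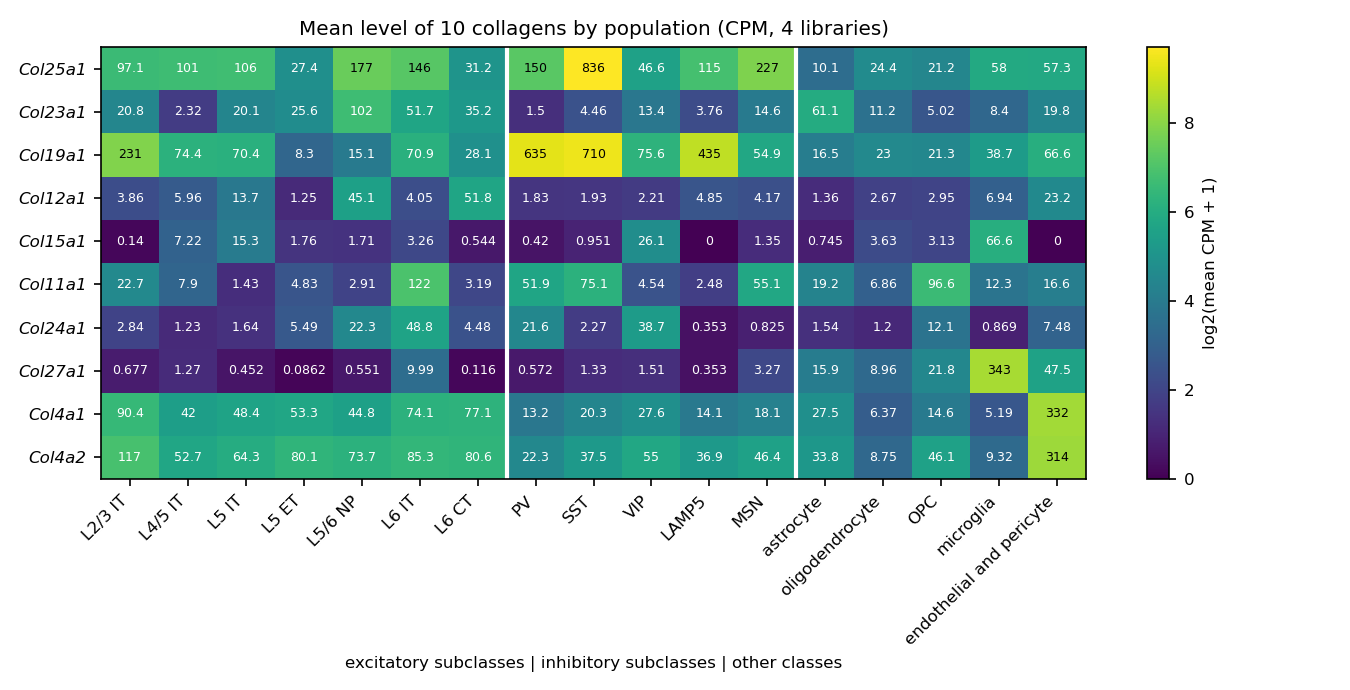
Mean CPM of the 10 collagens (rows) in 7 excitatory subclasses, 5 inhibitory subclasses and 5 other classes (columns), over 4 libraries. Colour is log2(mean CPM + 1) and the figures in the cells are mean CPM. Col25a1 and Col19a1 are highest in SST neurons (836 and 710), Col27a1 in microglia (343), and Col4a1 and Col4a2 in endothelial cells and pericytes (332 and 314).

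Col4a1 and Col4a2 encode the chains of the main basement membrane network and lie head to head on chromosome 8 (GRCm38). Their gene bodies, at chr8:11198423-11312826 on the minus strand and chr8:11312805-11449287 on the plus strand, overlap by 22 bases, the only overlap of a member with another counted gene. The promoter windows that RefSeq gives for GRCm38.p6 run from 250 bases before to 50 bases after each start, and the pair is shown because both windows read the same stretch of DNA from opposite strands. The 78 bases that they share (chr8:11312777-11312854) are in capitals.
Col4a1, chr8:11312777-11313076, minus strand: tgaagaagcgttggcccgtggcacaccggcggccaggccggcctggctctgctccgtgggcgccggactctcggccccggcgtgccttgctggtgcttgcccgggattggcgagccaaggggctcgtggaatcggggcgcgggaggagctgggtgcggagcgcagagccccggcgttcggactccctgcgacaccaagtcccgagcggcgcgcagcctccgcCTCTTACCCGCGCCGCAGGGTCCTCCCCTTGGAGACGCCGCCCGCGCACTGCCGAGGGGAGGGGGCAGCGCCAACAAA
Col4a2, chr8:11312555-11312854, plus strand: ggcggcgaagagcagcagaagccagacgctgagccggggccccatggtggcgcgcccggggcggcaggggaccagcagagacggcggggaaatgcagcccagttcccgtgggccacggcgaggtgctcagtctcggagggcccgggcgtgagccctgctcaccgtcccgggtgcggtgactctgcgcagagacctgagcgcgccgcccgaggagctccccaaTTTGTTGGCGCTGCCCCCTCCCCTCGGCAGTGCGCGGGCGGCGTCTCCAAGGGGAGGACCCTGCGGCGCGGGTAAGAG
The shared stretch holds 1 match to the letters GGGCGG, read on both strands, and none to CCAAT or TATAAA. Of all 32851 promoter windows of this length, 35.7% held GGGCGG, 37.4% CCAAT and 13.6% TATAAA. The windows of the pair were also rich in G and C, at 74.0% and 73.7% against a median of 52.7% over all windows.

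The levels of the pair moved together from one population to the next. Endothelial cells and pericytes were highest, with Col4a1 at 332 ± 96.6 CPM (SD, n = 4) and Col4a2 at 314 ± 14.9 CPM. L2/3 IT neurons came next, at 90.4 ± 10.3 and 117 ± 4.39 CPM, and oligodendrocytes and microglia were lowest. Over the 17 populations the correlation of log2(CPM + 1) between both genes was 0.95, a description over populations that share libraries. The ratio of Col4a1 to Col4a2 was 1.06 in endothelial cells and pericytes, 0.957 in L6 CT neurons and 0.316 in OPCs. Vascular nuclei are few in these preparations, so that 85.1% of the Col4a1 UMIs and 79.8% of the Col4a2 UMIs came from excitatory neurons, and 0.903% and 0.623% from endothelial cells and pericytes.

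Of the fibrillar members, Col11a1 (chr3:114030540-114220718) is a minor collagen mixed into larger fibres, Col24a1 (chr3:145292472-145552011) is a fibrillar collagen of bone, and Col27a1 (chr4:63214004-63334991) is a fibrillar collagen of cartilage. Col11a1 was highest in L6 IT neurons (122 ± 13.0 CPM), followed by OPCs (96.6 ± 28.3) and SST neurons (75.1 ± 10.8), and the libraries of these neighbours in the order overlapped. The L6 IT level came from one sub-cluster, led by Col11a1, Gfra1, Cntnap3 and Oprk1 and high in Nr4a2, a gene of deep-layer and claustrum neurons. In its 246 nuclei Col11a1 stood at 707 CPM, against 12.0 and 22.2 CPM in the other L6 IT sub-clusters. Col24a1 followed the same split, at 225 CPM in the Nr4a2 sub-cluster against 13.9 and 27.5 CPM, and its next population was VIP neurons (38.7 ± 7.66 CPM). Col27a1 was a microglial gene in these data, with 343 ± 54.8 CPM in microglia, 47.5 CPM in endothelial cells and pericytes and a mean under 10 CPM in every neuronal subclass. Microglia gave 60.9% of all its UMIs.

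The FACIT members parted in a similar way. Col12a1 (chr9:79598991-79718831), a collagen of tendon and other dense connective tissue, was highest in L6 CT neurons (51.8 ± 15.4 CPM) and L5/6 NP neurons (45.1 ± 4.42), whose libraries overlapped. Col19a1 (chr1:24261890-24587472), known for its part in inhibitory synapse formation in the cortex, was highest in SST (710 ± 51.9 CPM) and PV interneurons (635 ± 27.4), followed by LAMP5 interneurons (435 ± 19.8) and L2/3 IT neurons (231 ± 21.8). SST and PV overlapped, whereas PV and LAMP5, and LAMP5 and L2/3 IT, did not. VIP interneurons, at 75.6 CPM, stood below these 3 interneuron subclasses in every library, although this level depended on the clustering and was 193 to 370.0 CPM with collagens among the variable genes. The genes with the profile most like that of Col19a1 over the 17 populations were Kcnc2 (r = 0.87), Pam (0.86) and Kcnc1 (0.85). Kcnc1 and Kcnc2 encode potassium channels of fast-spiking neurons and were among the markers that named the PV subclass, and Pam encodes an enzyme of neuropeptide maturation.

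Col25a1, a transmembrane collagen of neurons found in amyloid plaques and needed for motor innervation of muscle, was highest in SST interneurons at 836 ± 87.2 CPM. MSN (227 ± 43.1 CPM), L5/6 NP (177 ± 50.9) and PV neurons (150 ± 22.4) followed with overlapping libraries, and astrocytes were lowest at 10.1 CPM. Within SST interneurons, a sub-cluster of 121 nuclei led by Nos1, Hhip, Adgrg6 and Tacr1, the profile of long-range projecting interneurons, reached 3702 CPM. The largest SST sub-cluster stood at 821 CPM and the remaining one, led by Trhde and Lypd6, at 43.4 CPM. Inhibitory neurons gave 55.4% of its UMIs and excitatory neurons 41.6%. Klf5 (r = 0.87), Clmp (0.83) and Cers6 (0.80) had the most similar profiles over the 17 populations. Klf5 encodes a transcription factor, Clmp an adhesion protein and Cers6 a ceramide synthase. Col23a1 (chr11:51289920-51583918), the other transmembrane member, whose ectodomain is shed from the cell surface, was highest in L5/6 NP neurons (102 ± 22.8 CPM), followed by astrocytes (61.1 ± 42.6) and L6 IT neurons (51.7 ± 4.58), and was lowest in PV interneurons at 1.497 CPM. The L5/6 NP name pooled sub-clusters of 504, 656 and 236 nuclei, whose scores on its markers were 3.35, 1.02 and 0.73. When all nuclei were clustered, Col23a1 was among the leading genes of a cluster led by Lypd1 and Dcn and of one led by Tshz2, Vwc2l and Cdc14a. It was not among those of the cluster led by Vwc2l, Tshz2 and Myzap.

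The RefSeq promoter window of Col25a1 is shown because this gene had the most calls between genotypes. It lies at chr3:130180595-130180894 (GRCm38.p6, plus strand), and its start lies 49.3 kb inside the gene body that GENCODE gives for the counted gene (chr3:130131501-130599877), so it is one start of the gene and may not be the one used in these cells. Capitals mark the matches to CCAAT (1) and GGGCGG (2) on either strand.
Col25a1: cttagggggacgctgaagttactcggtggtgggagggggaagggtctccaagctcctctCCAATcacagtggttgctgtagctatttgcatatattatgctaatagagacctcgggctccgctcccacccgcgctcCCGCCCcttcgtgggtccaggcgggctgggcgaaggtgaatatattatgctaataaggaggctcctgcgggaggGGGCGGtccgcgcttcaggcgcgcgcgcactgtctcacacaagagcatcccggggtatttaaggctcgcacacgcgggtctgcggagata
The windows of Col19a1, Col15a1 and Col24a1 held none of the 3 motifs. Of the 10 members, 9 were in the promoter table, and Col12a1 was not.

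Col15a1 (chr4:47208161-47313167), a multiplexin of vessel and muscle basement membranes, was the rarest member, with 817 UMIs in all. It was highest in microglia (66.6 ± 17.4 CPM), then in VIP interneurons (26.1 ± 10.1), L5 IT (15.3 ± 8.67) and L4/5 IT neurons (7.22 ± 4.03). In L2/3 IT neurons, the largest subclass, it stood at 0.140 CPM. No UMI was seen in LAMP5 interneurons, which allows a level of up to 1.27 CPM, or in endothelial cells and pericytes, where the smaller total allows up to 10.1 CPM (3 counts over the 4 libraries, counting error only). Its most similar profiles were those of Ugcg (r = 0.81), Gcn1 (0.73) and Pacc1 (0.69), all highest in microglia. Ugcg encodes glucosylceramide synthase, Gcn1 an activator of the amino acid starvation response and Pacc1 a proton-activated chloride channel.

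The question of the genotype comparison was in which cell types creatine transporter loss changed RNA levels. For each population the UMIs of a library were added up, and the sums were tested with edgeR, with an adjusted p under 0.1 over all genes tested as the threshold. In the excitatory subclasses 57 of 70 pairs of member and population passed the filter on low counts, and 8 were called, all lower in CrT-KO. Over all genes 0.31% of pairs were called there in either direction. At an unadjusted p under 0.05 there were 20 member pairs, all lower, and over all genes 4.13% of pairs passed it in that direction. In the major classes 40 of 70 pairs were tested and 2 were called, both lower, against 0.0822% over all genes. In the inhibitory subclasses 29 of 50 pairs were tested and edgeR called 0, against 0.0958% over all genes. In those subclasses 6 pairs had an unadjusted p under 0.05, 3 of them lower, against 5.6% of pairs over all genes, and DESeq2 also called 0, with 3 pairs under 0.05. Since the members were chosen on this contrast, these counts describe the list. The 10 calls belonged to Col25a1, Col15a1, Col24a1 and Col23a1. With DESeq2 the excitatory subclasses gave 2 calls, both of Col25a1, and Col15a1 in L4/5 IT and L5 IT neurons received no adjusted p from that tool. In the major classes DESeq2 called 3 pairs. Over all genes it called 69 of 17029 in L2/3 IT and 48 of 16744 in L4/5 IT neurons, the 2 subclasses of its Col25a1 calls. Its calls over all genes were 76 of 18219 in the excitatory class and 4 of 17589 in the inhibitory class. The estimate was below 0 for 10 of 10 members in the excitatory class, with a median log2 fold change of -0.41, and for 5 of 10 in the inhibitory class, with a median of -0.0041. Over all genes the medians of the same fits were -0.0059 and -0.0046.

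**Figure D2:**
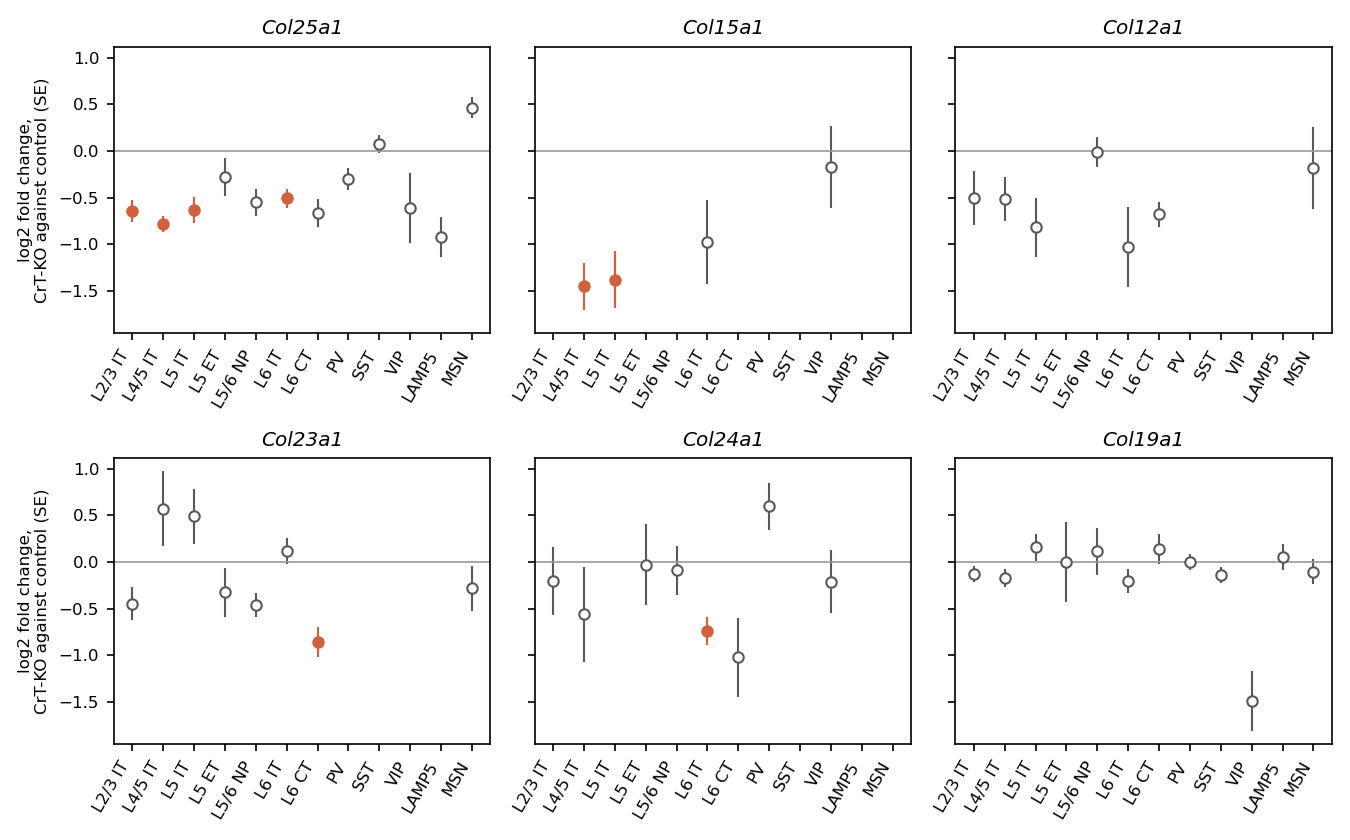
Log2 fold change of CrT-KO against control with its SE (edgeR) for 6 collagens in the excitatory and inhibitory subclasses in which each was tested. Filled points were called at an adjusted p under 0.1, and all 8 of them lie below 0. Open points were not called, among them Col19a1 in VIP neurons at -1.49 and Col25a1 in MSN neurons at 0.46.

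Col25a1 was lower in CrT-KO excitatory neurons as a class. Its level was 106 and 121 CPM in the control libraries and 70.1 and 69.9 CPM in the CrT-KO libraries, a log2 fold change of -0.65 (SE 0.083, adjusted p = 0.0142), where 0.115% of genes were called lower. In all 7 excitatory subclasses both CrT-KO libraries lay below both control libraries, as they did in 23.9% of all tested pairs of gene and excitatory subclass. In L4/5 IT neurons the values were 128 and 131 against 69.7 and 76.7 CPM, a change of -0.78 (SE 0.090, adjusted p = 0.0031, with 0.193% of genes called lower). In L2/3 IT neurons they were 105 and 135 against 71.4 and 77.5 CPM, a change of -0.64 (SE 0.117, adjusted p = 0.0191, with 0.235% called lower). The spread between the control libraries was wider here than in L4/5 IT. In L5 IT neurons Col25a1 stood at 130.0 and 129 CPM in control and at 69.4 and 95.5 CPM in CrT-KO, a change of -0.63 (SE 0.139, adjusted p = 0.0241, with 0.212% called lower). L6 IT neurons showed 178 and 169 against 123 and 114 CPM, a change of -0.51 (SE 0.101, adjusted p = 0.0347, with 0.0683% called lower). The other 3 subclasses missed the threshold, with estimates of -0.66 in L6 CT (adjusted p = 0.161), -0.55 in L5/6 NP (0.304) and -0.28 in L5 ET (0.832). The class lost its call without control 2 (-0.53, adjusted p = 0.409), as did L2/3 IT (-0.41, 0.198). L4/5 IT lost its call without control 1 (-0.81) or control 2 (-0.76), and L6 IT likewise (-0.48 and -0.53). Those estimates stayed near the ones from all 4 libraries. L5 IT lost its call without CrT-KO 1 (-0.39). The L5 IT call was also lost with DESeq2 (-0.62, adjusted p = 0.586) and at resolution 2.0 (-0.53, edgeR adjusted p = 0.375). So was the L6 IT call, with DESeq2 (-0.50, 0.602) and at resolution 2.0 (-0.32, 0.588). Every estimate stayed below 0.

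**Figure D3:**
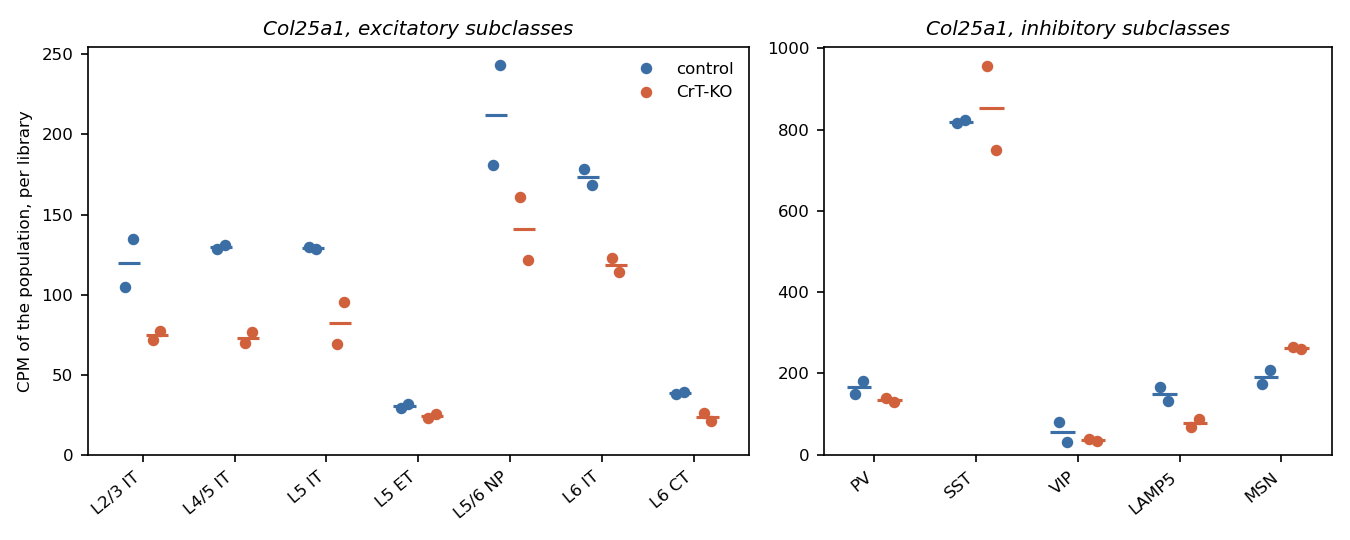
Col25a1 CPM per library (points) and group mean (short lines) in excitatory subclasses (left) and inhibitory subclasses (right), 2 control and 2 CrT-KO libraries each. In every excitatory subclass both CrT-KO points lie below both control points, whereas in MSN neurons both lie above, at 265 and 260.2 against 175 and 209.

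The lower Col25a1 values were spread over most parts of the excitatory class. Of 24 excitatory sub-clusters with at least 20 nuclei in every library, the mean was lower in CrT-KO in 22, and all CrT-KO libraries lay below all control libraries in 16 and above them in 1. Of all pairs of excitatory sub-cluster and gene 18.5% were lower in this way. The exception was an unnamed sub-cluster led by Htr4 and Sncaip, with nearly no Col25a1 at 0 and 3.36 against 8.76 and 10.1 CPM. Among sub-clusters of over 1000 nuclei the widest gap was in an L4/5 IT sub-cluster of 1166 nuclei led by Pld5 and Rorb, with 123 and 124 CPM in control and 35.9 and 43.1 CPM in CrT-KO. The main L2/3 IT sub-cluster, with 2628 nuclei, held 91.0 and 87.8 against 43.4 and 36.6 CPM. An L4/5 IT sub-cluster led by Reln and Adamts6 overlapped instead, at 104 and 55.7 against 108 and 73.1 CPM. Of 23 inhibitory sub-clusters the mean was lower in 11, with all libraries lower in 2 and higher in 7, against 13.7% of all such pairs higher. These counts come from the same nuclei as the calls above and add no replicate.

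**Figure D4:**
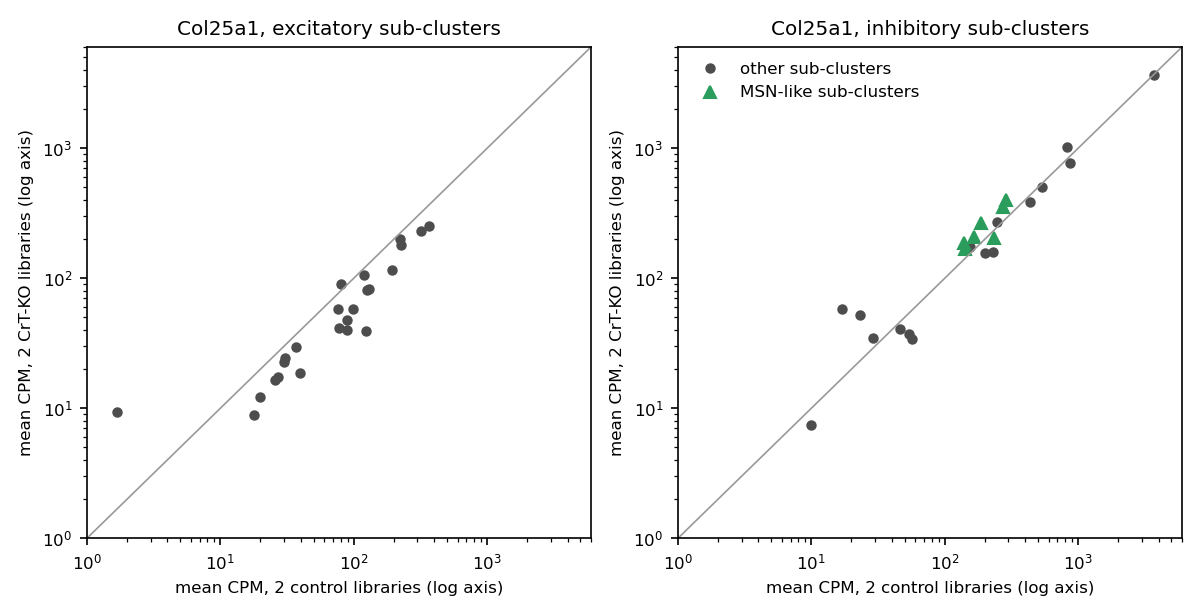
Mean Col25a1 CPM of the 2 control libraries (horizontal, log axis) against that of the 2 CrT-KO libraries (vertical, log axis), 1 point per sub-cluster with at least 20 nuclei in every library, and the line of equal values. Of the 24 excitatory points 22 lie below the line, and 6 of the 7 MSN points (triangles) lie above it.

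The inhibitory class as a whole held Col25a1 at 334 and 312 CPM in control and 379.8 and 349 CPM in CrT-KO, an estimate of 0.19 (adjusted p = 0.934), and its subclasses differed in direction, with no call. PV interneurons lay lower without overlap, at 150.5 and 181 against 139 and 129 CPM (estimate -0.30, adjusted p = 0.835). MSN neurons held 175 and 209 CPM in control and 265 and 260.2 CPM in CrT-KO, an estimate of 0.46 (SE 0.112, adjusted p = 0.163). In 5 of their 7 sub-clusters all CrT-KO libraries lay above all control libraries, as in 13.7% of all pairs of inhibitory sub-cluster and gene. These sub-clusters share the 4 libraries and are not replicates. SST interneurons, the population with the highest level, overlapped at 816 and 823 against 957 and 749 CPM. In LAMP5 interneurons the values were 168 and 133 against 68.8 and 89.0 CPM, an estimate of -0.92 (SE 0.210, adjusted p = 0.183). Here the estimate differed from that of the other named inhibitory subclasses by -1.07 (SE 0.209, adjusted p = 0.000683), where the rest of the class held 305 and 319 against 362 and 330.5 CPM. Most LAMP5 UMIs of Col25a1 came from a sub-cluster of 37 nuclei led by Mctp2 and Hapln1, with 815 and 1022 against 395 and 838 CPM, while the main LAMP5 sub-cluster, led by Pde11a and Kit, held 52.2 and 62.4 against 47.4 and 20.7 CPM. Without that sub-cluster the difference was -0.86 (adjusted p = 0.763), and it also missed the threshold without control 1 (adjusted p = 0.261) or without CrT-KO 1 (0.534).

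Col15a1 was lower in CrT-KO in the excitatory class, at 4.81 and 4.599 CPM in control and 1.93 and 2.12 CPM in CrT-KO (167, 166, 81 and 72 UMIs). The log2 fold change was -1.17 (SE 0.171, adjusted p = 0.0266), or 44.5% of the control level. In L4/5 IT neurons the levels were 9.73 and 11.46 against 2.99 and 4.68 CPM, a change of -1.45 (SE 0.252, adjusted p = 0.0372). In L5 IT neurons they were 25.0 and 19.5 against 10.7 and 5.73 CPM, a change of -1.38 (SE 0.302, adjusted p = 0.0241). The gap was visible in the 3 L4/5 IT sub-clusters that held the gene, led by Pld5 and Rorb, by Scn7a and Thsd7a, and by Mamdc2 and Rspo1. In these, both CrT-KO libraries lay below both control libraries, as in 18.5% of all pairs of excitatory sub-cluster and gene. The sub-clusters are parts of the called populations and add no replicate. L6 IT neurons held 3.86 and 4.85 against 2.08 and 2.24 CPM without a call (adjusted p = 0.644). Microglia, where the gene was highest, overlapped at 85.7 and 46.5 against 75.3 and 58.9 CPM, an estimate of 0.08 (adjusted p = 0.987), and VIP interneurons overlapped as well. The calls in the excitatory class and in L4/5 IT were lost without control 1 (-1.16 and -1.56) or without control 2 (-1.18 and -1.31). That in L5 IT was lost without control 1 (-1.20) or CrT-KO 2 (-1.04), and at resolution 2.0 (-1.29, edgeR adjusted p = 0.151). These estimates ranged from -1.56 to -1.04.

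Col24a1, Col23a1 and Col12a1 had their lowest adjusted p in the deep layers. In L6 IT neurons Col24a1 stood at 63.5 and 59.5 CPM in control and 32.2 and 39.9 CPM in CrT-KO, a change of -0.74 (SE 0.146, adjusted p = 0.0345). The Nr4a2 sub-cluster made up 73, 60, 55 and 58 of the L6 IT nuclei in control 1, control 2, CrT-KO 1 and CrT-KO 2. Within it Col24a1 was 249 and 278 against 181 and 194 CPM, and in the main L6 IT sub-cluster 22.2 and 18.4 against 3.75 and 11.3 CPM. The libraries did not overlap in either, as in 18.5% of all pairs of excitatory sub-cluster and gene, while the smallest sub-cluster overlapped. Neither part passed on its own: the change was -0.47 (adjusted p = 0.588) for the Nr4a2 sub-cluster and -1.22 (0.148) without it, both fits added after seeing the data. For Col25a1 in L6 IT neurons the change was as large in the sub-cluster (-0.51, adjusted p = 0.432) and without it (-0.47, 0.221) as in the whole subclass, and neither passed the threshold. The Col24a1 call was also lost with DESeq2 (-0.72, adjusted p = 0.9996) and at resolution 2.0 (-0.56, edgeR adjusted p = 0.337). It was lost too without control 1 (-0.71), control 2 (-0.77) or CrT-KO 1 (-0.57).

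In L6 CT neurons Col23a1 stood at 41.2 and 49.9 CPM in control and 21.9 and 27.9 CPM in CrT-KO, a change of -0.86 (SE 0.161, adjusted p = 0.0911, with 0.0868% of genes called lower). The call was lost with DESeq2 (-0.85, adjusted p = 0.138), with collagens among the variable genes (-0.66, 0.110) and at resolution 2.0 (-0.89, 0.112), and it would not hold at a threshold of 0.05. Both L6 CT sub-clusters showed lower values, at 23.0 and 23.0 against 10.2 and 9.57 CPM and at 62.8 and 85.3 against 35.9 and 48.4 CPM. Of all pairs of excitatory sub-cluster and gene 18.5% were lower without overlap. In L5/6 NP neurons, its highest population, Col23a1 was 133 and 107 against 86.4 and 83.4 CPM without a call (estimate -0.46, adjusted p = 0.317). Col12a1 in L6 CT neurons lay just outside the threshold, with 70.4 and 58.2 against 41.4 and 37.1 CPM, an estimate of -0.68 (SE 0.135, adjusted p = 0.103). Its libraries did not overlap in 5 of the 6 excitatory subclasses tested, L2/3 IT, L4/5 IT, L5 IT, L6 CT and L6 IT, always with CrT-KO lower. Of all tested pairs of gene and excitatory subclass 23.9% were lower in this way. Col12a1 was called in none of them, and in L6 IT it rested on 59 UMIs over the 4 libraries. In L5/6 NP neurons, which held Col12a1 at nearly the L6 CT level, they overlapped at 47.2 and 44.2 against 39.4 and 49.6 CPM.

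**Figure D5:**
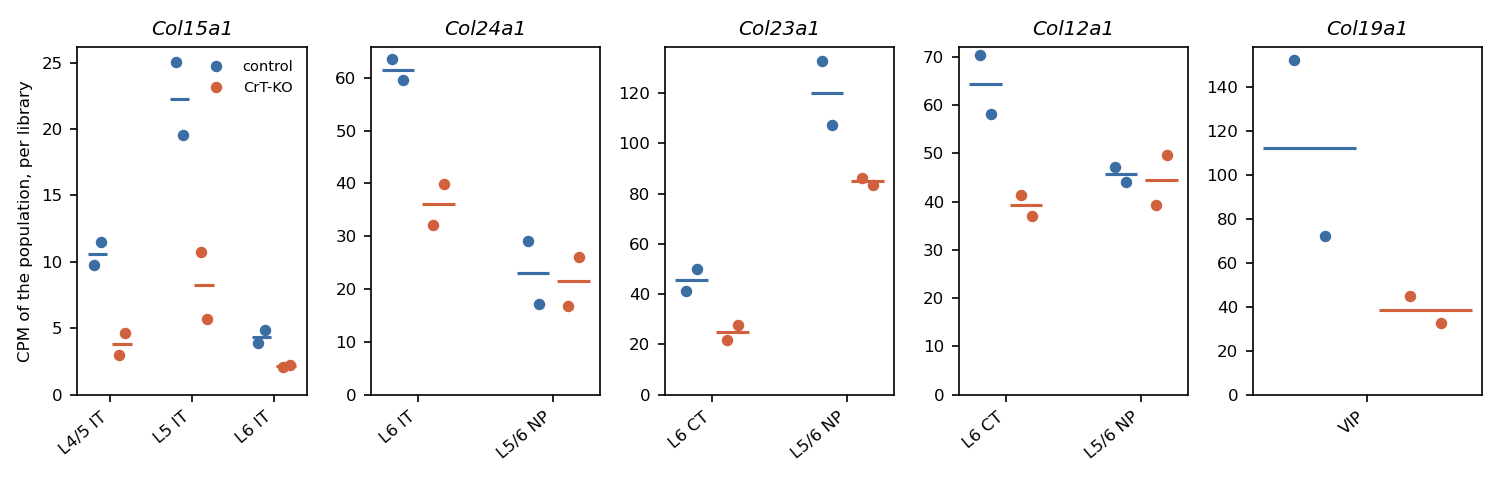
CPM per library (points) and group mean (short lines) of Col15a1 in L4/5 IT, L5 IT and L6 IT, Col24a1 in L6 IT and L5/6 NP, Col23a1 and Col12a1 in L6 CT and L5/6 NP, and Col19a1 in VIP neurons, 2 control and 2 CrT-KO libraries each, vertical axes from 0. Among these the groups overlap for Col24a1 and Col12a1 in L5/6 NP neurons.

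The effect of genotype was also compared between each subclass and the other named subclasses of its class, as a test of the difference itself with the library as a block. Of 118 pairs of member and subclass 5 were called: 3 of 70 excitatory pairs, where 0.358% of all pairs were called, and 2 of 48 inhibitory pairs, where 0.0985% were called. Col11a1 differed in L6 IT neurons by 0.77 (SE 0.126, adjusted p = 0.00107). Its level there was 127 and 105 CPM in control and 122 and 135 CPM in CrT-KO, whereas the rest of the class held 15.5 and 11.1 against 8.38 and 8.72 CPM. Within L6 IT the groups parted only in the Nr4a2 sub-cluster, with 612 and 635 against 732 and 847 CPM, and without that sub-cluster the difference was 0.26 (adjusted p = 0.974). Col23a1 differed in L6 IT by 0.59 (SE 0.132, adjusted p = 0.0411) and in L5 IT by 0.92 (SE 0.243, adjusted p = 0.0506). Its level in L6 IT overlapped between the genotypes at 55.5 and 45.2 against 54.3 and 51.8 CPM, while in the rest of the class it was 35.5 and 26.8 against 21.9 and 21.3 CPM. In L5 IT control 2 alone was low, with 25.0 and 8.84 against 21.8 and 24.8 CPM, and without that library the difference was 0.50 (adjusted p = 0.865). It also missed the threshold without CrT-KO 1 (1.06, 0.943) or CrT-KO 2 (0.79, 0.875). The L6 IT difference of Col23a1 missed the threshold without control 1 (0.54, adjusted p = 0.298), CrT-KO 1 (0.59, 0.250) or CrT-KO 2 (0.60, 0.191) and without the Nr4a2 sub-cluster (0.52, 0.230), with its size close to that over all libraries. In the upper layers Col11a1 had lower values in CrT-KO with no overlap, at 31.8 and 22.6 against 16.9 and 19.7 CPM in L2/3 IT (estimate -0.52, adjusted p = 0.227) and at 12.0 and 8.60 against 5.76 and 5.24 CPM in L4/5 IT (estimate -0.84, adjusted p = 0.233).

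Col19a1 had its largest genotype estimate in VIP interneurons. Its level was 152 and 72.5 CPM in control and 44.9 and 32.7 CPM in CrT-KO (88, 45, 27 and 15 UMIs), so that the groups did not overlap but the 2 control libraries differed by more than control 2 did from CrT-KO 1. The log2 fold change of -1.49 (SE 0.321, adjusted p = 0.131) was not called. It was called with no filter on low counts (-1.51, adjusted p = 0.000243) and with the replicate number as a block (-1.54, 6.46e-06). Over all genes the VIP calls also rose, from 3 of 6021 to 19 of 13864 with no filter and to 28 of 6021 with the block. The estimate was -1.94 without control 2, -1.76 without CrT-KO 1 and -1.32 without CrT-KO 2, and it was called in each. Control 2 is the control nearer to CrT-KO, so leaving it out widens the gap by construction and adds no support. Without control 1 the estimate was -0.88 and was not called. It differed from that of the other inhibitory subclasses by -1.41 (SE 0.280, adjusted p = 0.00565). Without control 1 that difference was -0.85 (adjusted p = 0.734), and without CrT-KO 2 it was -1.17 with an adjusted p of 1. The VIP nuclei also depended on the clustering: with collagens allowed among the variable genes 787 nuclei rather than 487 carried the name, the levels were 370.0 and 193 against 324 and 241 CPM, and the estimate was 0.02. In PV, SST, LAMP5 and MSN neurons, with mean levels of 54.9 to 710 CPM, Col19a1 had estimates between -0.14 and 0.06. In the excitatory class it stood at 117 and 109.8 against 102 and 90.8 CPM, an estimate of -0.18 (adjusted p = 0.50).

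The basement membrane pair and Col27a1 had no call in any population. Col4a1 was tested in 17 and Col4a2 in 18 of 19 populations, with median estimates of 0.02 and 0.07. In L2/3 IT neurons, the neurons with the highest level, the pair stood at 106 and 86.4 against 86.3 and 83.3 CPM for Col4a1 and at 119.5 and 122 against 114 and 112 CPM for Col4a2, with adjusted p = 0.792 and 0.943. In endothelial cells and pericytes, with 30 to 68 nuclei per library, Col4a1 was 348 and 446 against 211 and 321 CPM (19, 46, 20 and 14 UMIs). The groups did not overlap, and the estimate of -0.69 (SE 0.366, adjusted p = 0.883) did not pass the threshold. Col4a2 overlapped. Col27a1 overlapped in microglia at 322 and 397 against 277 and 379 CPM. Its lowest estimate, -1.40 in oligodendrocytes (adjusted p = 0.303), rested on 26, 24, 9 and 8 UMIs.

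The share of nuclei with at least 1 UMI was taken for the 10 called pairs from the same counts. These pairs were called lower on those counts, so lower shares follow in part from the choice and add no support. Each nucleus was thinned to 1000 UMIs, because depth differs between libraries, and CrT-KO lay below control without overlap in 8 of 10 pairs. No such count over all genes is given for shares. By CPM 29.6% of genes in the excitatory class and 23.9% of pairs in its subclasses were lower without overlap. Between 0 and 4 excitatory nuclei and between 138 and 375 oligodendrocytes per library were shallower and left out. No such comparison of 2 against 2 libraries can give an exact permutation p below 0.33. In the excitatory class Col25a1 was seen in 8.40% and 9.21% of thinned control nuclei and in 5.54% and 5.85% of thinned CrT-KO nuclei. Without thinning the shares were 34.4% and 36.8% against 25.9% and 22.1%. Oligodendrocytes, the cell type taken as background, gave 1.65% to 3.17% when thinned and 2.33% to 4.32% as counted, at median depths of 1220 to 1416 UMIs against 7302 to 8819 UMIs in excitatory nuclei. The exceptions were Col25a1 in L5 IT and Col15a1 in L4/5 IT neurons. The thinned shares of Col15a1 in the excitatory class, 0.531% and 0.520% in control against 0.158% and 0.117% in CrT-KO, lay close to those of oligodendrocytes, 0.441% and 0.396% against 0.103% and 0.201%. At that depth the class, which pools subclasses with and without the gene, cannot be told from background. The oligodendrocyte shares were themselves lower in CrT-KO without overlap. In L5 IT neurons the thinned shares were 2.43% and 2.94% against 0.437% and 1.36%, above those of oligodendrocytes in each library. In L4/5 IT neurons they were 0.387% and 1.33% against 0.416% and 0.523%. As counted the shares in the excitatory class were 3.46% and 3.22% against 1.47% and 1.44%. Those of the shallower oligodendrocytes were 0.610% and 0.603% against 0.450% and 0.292%, also lower without overlap.

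Markers of other cell types were summed in the populations with calls, since RNA of other cells can enter a droplet. In the excitatory class the endothelial and pericyte markers summed to 25.2 and 26.6 CPM in control and 28.4 and 31.0 CPM in CrT-KO, with 5 of 13 markers higher and 2 lower without overlap. Inhibitory markers summed to 626 and 639.9 against 649 and 665 CPM, although of the 11 markers 1 was higher and 2 were lower without overlap. Fibroblast markers ran from 5.18 to 5.51 CPM in control and from 3.97 to 4.78 CPM in CrT-KO, with 3 of 9 lower, 1 higher and Igf2 at 0. Over all genes tested in the class 11.5% were higher and 29.6% lower without overlap. The summed microglial markers were lower in CrT-KO in L6 CT (48.6 to 53.7 against 40.3 to 43.6 CPM) and in L6 IT neurons (45.2 to 48.0 against 37.7 to 42.3 CPM), with Tmem119 and Pf4 at 0 in both. Single markers were mixed: of 13, 2 were lower and 1 higher without overlap in L6 CT, and 1 lower and 1 higher in L6 IT. In L4/5 IT neurons the summed oligodendrocyte markers were lower, at 121 to 122 against 98.6 to 114 CPM, and endothelial and pericyte markers higher, at 19.2 to 23.8 against 25.3 to 28.9 CPM, with Cldn5 and Kcnj8 at 0. Of 12 oligodendrocyte markers 3 were lower and 0 higher without overlap, and of 13 endothelial and pericyte markers 3 were higher and 2 lower. The summed endothelial and pericyte markers were also higher in L2/3 IT (29.6 to 30.8 against 32.7 to 34.7 CPM), L6 CT (16.7 to 21.3 against 24.9 to 25.7 CPM) and LAMP5 neurons (25.4 to 25.6 against 27.2 to 32.2 CPM), with Cldn5 and Kcnj8 at 0 in each and 6 of the 13 markers at 0 in LAMP5, among them Flt1 and Pdgfrb. Without overlap, 3 of them were higher and 2 lower in L2/3 IT, and 2 were higher and 0 lower in L6 CT and in LAMP5. Fibroblast markers in LAMP5, 6 of 9 of them at 0, summed to 6.99 and 7.06 against 7.17 and 9.46 CPM, with 1 higher and 1 lower without overlap. The summed inhibitory markers were higher in L4/5 IT (331 to 392 against 399 to 399.8 CPM), L6 CT (832 to 842 against 850.2 to 913 CPM) and L6 IT neurons (421 to 428 against 449.7 to 495 CPM). Of 11 markers, 6 were higher and 2 lower without overlap in L4/5 IT, 2 and 1 in L6 CT, and 4 and 0 in L6 IT. In L6 IT the summed fibroblast markers ran from 3.58 to 4.97 CPM in control and from 2.86 to 2.88 CPM in CrT-KO. Of these 9 markers 1 was lower and 1 higher without overlap, and Col1a1, Col1a2, Col3a1, Slc6a13 and Igf2 were at 0. The summed excitatory markers were higher in CrT-KO VIP nuclei, at 1507 to 1538 against 1720 to 1728 CPM, with 4 of 12 higher and 0 lower without overlap. Their part in the results was not tested. The VIP name also covered a sub-cluster led by Lgr5 and Calb2 and high in Th, with 30 of its 47 nuclei in control 2. Without it Col19a1 had an estimate of -1.58 (adjusted p = 0.189).

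The wider collagen pathway was followed with 6 lists chosen, like the members, with earlier results of these data known. They hold 34 other collagen chains, 18 biosynthesis enzymes and chaperones, 16 processing and cross-linking genes, 14 receptors, 16 degrading enzymes and inhibitors, and 9 basement membrane partners. In the excitatory subclasses 346 pairs were tested, 2 were called higher and 0 lower, against the 0.31% called over all genes, and 48 had an unadjusted p under 0.05, against 7.83% over all genes. Col8a1, a short-chain network collagen, was higher in L4/5 IT neurons, with 47.0 and 47.4 CPM in control and 81.3 and 68.2 CPM in CrT-KO, a change of 0.71 (SE 0.106, adjusted p = 0.0237). Ptprd, a receptor tyrosine phosphatase of the synapse from the receptor list, was higher in L2/3 IT neurons, with 14466 and 15571 against 17878 and 18881 CPM, a change of 0.34 (SE 0.077, adjusted p = 0.0761). In the major classes edgeR called 0 of 272 pairs, with 29 under an unadjusted p of 0.05 (6.37% over all genes). DESeq2 called 2 there, and over all genes 76 of 18219 in the excitatory class. In the inhibitory subclasses edgeR called 0 of 162, with 15 under an unadjusted p of 0.05 (5.6% over all genes). DESeq2, fitted without that filter on low counts, also called 0.

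In the excitatory subclasses the median estimate was -0.10 over the other collagen chains, -0.06 over the biosynthesis genes, 0.02 over the processing genes, 0.12 over the receptors, 0.03 over the degrading enzymes and -0.14 over the basement membrane partners, against -0.0031 over all genes. The most abundant genes of the lists showed where the pathway is expressed. Among other chains these were Col26a1, Col8a1 and Col6a1, at 41.3, 17.0 and 12.4 CPM over all nuclei. P4ha1, a subunit of prolyl 4-hydroxylase, and the collagen export factors Mia2 and Mia3 led the biosynthesis list at 90.6, 65.6 and 49.96 CPM, P4ha1 and Mia2 being highest in microglia. Adamts3, a procollagen peptidase, was led by MSN neurons (433 CPM), while Pxdn, which cross-links collagen IV, was highest in L5 IT neurons (78.8 CPM) and Pcolce2, a procollagen processing enhancer, in oligodendrocytes (201 CPM). Of the receptors Ptprd stood at 13146 CPM over all nuclei, Ptprs at 191 and Itgb1 at 57.9. The membrane-type proteases Mmp16, Mmp17 and Mmp24 were at 678, 44.5 and 34.7 CPM, and Mmp16 was highest in OPCs (1559 CPM). Agrn, Smoc2 and Smoc1 led the basement membrane partners at 27.6, 18.0 and 10.0 CPM, with Smoc1 at 207 CPM in OPCs.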

How the data were processed

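The authors aligned the reads with Cell Ranger 3.1.0 to GRCm38 (mm10), counting whole gene bodies, and deposited 1 filtered matrix of raw UMI counts per library, used here as counts. Their notes also name Seurat 3.1.4. The members and gene lists were chosen with earlier results of these data known. Nuclei with high doublet scores were removed, and the rest were clustered in scanpy 1.11.5 (3000 variable genes without collagens, 30 components, 20 neighbours, Leiden resolution 1.0). Clusters were named from listed markers, with a scoring rule set after seeing the data. UMIs were summed per library and population. Sums of 2 control and 2 CrT-KO libraries were tested with edgeR 4.0.16 (quasi-likelihood, TMM, default filter on low counts, Benjamini-Hochberg over all tested genes, threshold 0.1), replacing a rank test over nuclei. DESeq2 1.42.0, other normalization, no filter, a replicate block, left-out libraries and other clusterings were alternatives. Sub-clusters were left out as alternatives added after seeing the data. CPM is UMIs scaled to 1000000 in the population. Genes named outside the members followed a written rule (called, or the 3 most abundant of a list, or the 3 most similar profiles), and sub-cluster leaders are described as found. Errors are SDs over libraries or SEs of fits, and with 2 animals a group the precision is low. Counting limits cover counting error only.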

Additional observations from a re-analysis of the deposited data

Results flagged for a closer look

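For 5 results the genotype effect in a subclass differed from the rest of its class by a test of the difference. In inhibitory neurons these were Col19a1 in VIP neurons (log2 difference -1.41) and Col25a1 in LAMP5 neurons (-1.07). In excitatory neurons these were Col23a1 in L5 IT neurons (0.92), Col11a1 in L6 IT neurons (0.77) and Col23a1 in L6 IT neurons (0.59). Of these 5, Col11a1 in L6 IT alone passed the threshold without each single library, and it did not pass without the Nr4a2 sub-cluster.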

How the results depend on the processing

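No alternative turned the direction of any of the 10 calls. Over those pairs and Col19a1 in VIP neurons, 135 alternatives gave 98 unchanged verdicts, 31 lost calls, 5 gained calls (all Col19a1) and 1 reversal, Col19a1 at 0.023 with collagens among the variable genes. Calls were lost most often without control 2 (7 of the 10 calls), without control 1 (6), at resolution 2.0 (5) and with DESeq2 (4). DESeq2 also gave no adjusted p for the Col15a1 calls in L4/5 IT and L5 IT neurons, so it did not make those either. Col25a1 in the excitatory class lost its call without control 2 (-0.53, adjusted p = 0.409), and Col15a1 there without either control. Over its alternatives the adjusted p ran from 2.53e-07 to 0.409 for Col25a1 and from 0.000143 to 0.452 for Col15a1 in the excitatory class, from 1.84e-11 to 0.568 for Col25a1 in L4/5 IT neurons and from 9.52e-05 to 0.138 for Col23a1 in L6 CT neurons. A lone library is assumed to vary like the others.

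Called members in the major classes (2) became 6 with the replicate block and 1 to 4 without 1 library. In the inhibitory subclasses (0) they became 3 with no filter, 2 with the block and 0 to 2 without 1 library. In the excitatory subclasses (8) they became 2 with DESeq2, 5 at resolution 2.0, 12 with the block and 5 to 11 without 1 library. Of these member calls 3 were higher, Col25a1 in MSN neurons with no filter and without control 2, and Col23a1 in L5 IT neurons without control 1. Called pathway pairs in the major classes (0) became 2 with DESeq2, 2 with no filter, 3 with the block, 1 with doublets kept, 2 at resolution 2.0 and 2 to 4 without 1 library. In the inhibitory subclasses (0) they became 1 with no filter, 1 with the block, 1 with collagens among the variable genes and 0 to 2 without 1 library. In the excitatory subclasses (2) they became 10 with no filter, 13 with the block, 5 at resolution 2.0, 1 at a threshold of 0.05 and 1 to 8 without 1 library. Called differences between subclasses (5) became 3 to 6 without 1 library, the lowest without CrT-KO 2. The number of genes called over all genes also changed with the setting, so such shifts were not particular to the members. With the block it rose from 29 to 586 of 13958 in the excitatory class and from 8 to 109 of 12911 in the inhibitory class. In L2/3 IT neurons it rose from 60 to 547 of 11909, and in MSN neurons it fell from 16 to 4 of 10146. With no filter it was 207 of 16744 in L4/5 IT neurons, against 47 of 11373 with it. The causes were not tested. Libraries share a replicate number only, with correlations of deviations between 0.01 and 0.16.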
